A study of Mus musculus with 6 samples.

Results

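The noncoding small nucleolar RNA (snoRNA) host genes examined here were Gas5, Snhg1, Snhg5, Snhg6, Snhg8, Snhg12, Snhg14, Snhg17 and Snhg20. They were chosen by name, and all 9 had a row among the 20015 genes of the table. The study compared RNA sequencing libraries of quadriceps muscle from limbs with an anterior cruciate ligament (ACL) injury, before reconstruction, with libraries from limbs without that injury. Each group had 3 libraries, lettered A to C. Mouse is the labelled organism, although the design text and the extraction notes name human tissue. Every row used here is a mouse gene model, and positions are given on mm10. Strain, age, genotype, the time after injury, what the letters stand for and whether the libraries came from separate animals are not stated in the labels. P-values therefore rest on library-to-library spread, part of which may be technical.

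Library totals ran from 6.45 to 8.75 M estimated counts. Levels are counts per M reads counted (CPM), scaled by TMM, edgeR's correction for differences in library composition. At an adjusted p under 0.05, edgeR called 115 of 16095 genes higher after injury (0.715%) and 5 lower (0.0311%). All 10 muscle fibre markers had rows and none passed in edgeR's test, at an unadjusted p under 0.05, or in DESeq2. Their sum was nevertheless lower in every injured library, at 193000 to 201000 CPM against 209000 to 216000 CPM. Summed macrophage markers stood at 99.3 to 173 CPM in the injured libraries against 44.2 to 51.4 CPM in the others, with 4 of 9 tested passing, or 7 with the letters A to C as a replicate block. Over all genes, 3.21% passed as higher and 2.65% as lower with that block, and 6.11% were lower at an unadjusted p under 0.05. Adipocyte markers summed to 37.7 to 51.8 CPM against 58.5 to 84.3 CPM, with none of 5 passing in edgeR, 4 at an unadjusted p under 0.05, none in DESeq2 and 2 (Plin1 and Cidec, lower) with the block. Erythroid markers summed to 132 to 324 CPM against 71.4 to 151 CPM, with 1 of 5 passing, or 4 with the block. Among neutrophil and lymphocyte markers, Csf3r passed as higher, and S100a8, Cd3d and Nkg7 were among those without a row. No marker of fibro-adipogenic, endothelial, satellite, Schwann or smooth muscle cells passed, and with the block Cxcl14, of the fibro-adipogenic list, was called higher. The part of these cells in the host values was not tested. The deposited data are named myonuclear RNA, while the protocol names no isolation of nuclei. Whether whole tissue or nuclei were sequenced is therefore not settled. In either case, fewer cells or nuclei of a type and less RNA in each cannot be told apart.

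Small nucleolar RNAs guide the chemical modification of ribosomal RNA in the nucleolus, and the related scaRNAs guide modification of spliceosomal RNAs in Cajal bodies. Box C/D RNAs guide ribose methylation and box H/ACA RNAs guide pseudouridylation. In mammals most are cut out of the introns of a host transcript, so a host gene yields a spliced RNA and the guide RNAs from the same precursor. Many spliced host RNAs begin with a 5′ terminal oligopyrimidine tract, as ribosomal protein mRNAs do, and are removed in the cytoplasm by nonsense-mediated decay when translated. Gas5 was first described as a transcript that accumulates when growth stops. Snhg14 is an imprinted transcript made from the paternal chromosome that runs antisense to Ube3a.

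The hosts differed in the guide RNAs they carry and in how many of these had a row of their own. GENCODE M21 has 239 snoRNA and scaRNA entries inside the 9 genes, of which 208 lie in Snhg14 and 10 in Gas5. Snora16a and Snord80 are each entered more than once, at nearly the same position. Of the 239, 229 are under 100 bases, and the table had no row for any snoRNA or scaRNA under 100 bases. Its shortest such row covers 109 bases. Gas5, Snhg5, Snhg6 and Snhg14 had no inner row, while 7 longer inner RNAs had one, in Snhg1, Snhg8, Snhg12, Snhg17 and Snhg20. The 6 inner RNAs with a mean of at least 20 counts are printed first because their values are reported below. Capitals mark an ACA followed by 3 bases at the end, or CTGA starting in the last 15 bases, searched on the RNA's own strand.
Snord22 (chr19:8725866-8725991, plus strand): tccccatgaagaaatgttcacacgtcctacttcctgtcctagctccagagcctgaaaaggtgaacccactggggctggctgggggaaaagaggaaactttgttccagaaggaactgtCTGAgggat
Snora24 (chr3:123507937-123508066, minus strand): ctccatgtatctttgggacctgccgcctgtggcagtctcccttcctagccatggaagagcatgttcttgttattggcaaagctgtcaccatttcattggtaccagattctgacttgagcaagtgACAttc
Snora16a (chr4:132309464-132309600, plus strand): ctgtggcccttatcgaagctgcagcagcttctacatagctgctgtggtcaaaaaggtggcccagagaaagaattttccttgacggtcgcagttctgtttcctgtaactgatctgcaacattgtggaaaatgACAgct
Snora44 (chr4:132309941-132310069, plus strand): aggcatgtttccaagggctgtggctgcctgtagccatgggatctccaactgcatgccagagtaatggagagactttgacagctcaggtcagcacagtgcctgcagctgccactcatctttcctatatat
Snora61 (chr4:132310240-132310369, plus strand): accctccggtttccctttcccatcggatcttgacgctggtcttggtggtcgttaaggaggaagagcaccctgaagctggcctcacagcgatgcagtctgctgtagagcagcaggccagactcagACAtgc
Gm26083 (chr11:117077243-117077435, plus strand): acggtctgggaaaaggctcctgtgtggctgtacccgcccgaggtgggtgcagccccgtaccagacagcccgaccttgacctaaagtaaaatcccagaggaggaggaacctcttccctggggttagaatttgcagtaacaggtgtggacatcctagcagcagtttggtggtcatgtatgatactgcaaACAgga
Snord22 lies in Snhg1, Snora24 in Snhg8, Gm26083 in Snhg20 and the other 3 in Snhg12. Of the 1096 annotated snoRNAs and scaRNAs of at least 100 bases, 25.7% end in an ACA with 3 bases after it and 9.95% hold CTGA in the last 15 bases. In Snora44 neither was found at these positions.

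For contrast, 1 short box C/D RNA from each of Gas5, Snhg5 and Snhg6 is shown, none of which has a row. Capitals mark TGATGA within the first 20 bases and CTGA starting in the last 15, the letters of boxes C and D. Both were present in 63.4% of the 462 annotated RNAs under 100 bases.
Snord47 (chr1:161038082-161038158, plus strand): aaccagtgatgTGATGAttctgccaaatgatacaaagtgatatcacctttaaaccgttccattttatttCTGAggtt
Snord50a (chr9:88521529-88521600, minus strand): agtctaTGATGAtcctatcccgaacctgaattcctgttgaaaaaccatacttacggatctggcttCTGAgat
Snord87 (chr1:9942463-9942549, minus strand): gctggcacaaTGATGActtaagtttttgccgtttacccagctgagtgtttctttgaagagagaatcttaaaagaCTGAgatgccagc
Snord47 has 77 bases, Snord50a 72 and Snord87 87, against 126 to 193 bases for the 6 inner RNAs with a usable row.

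Start sites were read from RefSeq on GRCm38.p6, the assembly of mm10, which held an entry for 8 of the 9 hosts. For 7 of them a RefSeq start lay within 1000 bases of the GENCODE start, and 20 bases on each side are printed, with the longest run of C and T in capitals. They are shown because a terminal oligopyrimidine tract would begin at the start, after the first 20 bases of the window.
Gas5 (chr1:161035146-161035185, plus strand): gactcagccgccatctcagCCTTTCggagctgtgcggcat
Snhg1 (chr19:8723467-8723506, plus strand): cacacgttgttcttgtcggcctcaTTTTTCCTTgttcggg
Snhg5 (chr9:88522878-88522917, minus strand): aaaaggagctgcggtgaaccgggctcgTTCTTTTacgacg
Snhg8 (chr3:123508317-123508356, minus strand): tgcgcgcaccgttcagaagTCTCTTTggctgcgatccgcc
Snhg12 (chr4:132308658-132308697, plus strand): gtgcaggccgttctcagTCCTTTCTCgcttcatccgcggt
Snhg17 (chr2:158361503-158361542, minus strand): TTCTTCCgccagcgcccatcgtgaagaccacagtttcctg
Snhg20 (chr11:117076763-117076802, plus strand): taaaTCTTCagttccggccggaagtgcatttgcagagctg
The run had 9 bases in Snhg1 and in Snhg12, a length reached in 10.7% of 32851 RefSeq start windows. It had 7 bases in Snhg5, Snhg8 and Snhg17, reached in 24.3% of windows, and 6 at another RefSeq start of Snhg17. That run, which is not printed, begins at the start itself. Gas5 had 6 bases (37.5%) at the printed start and 3 (93.7%) at another RefSeq start, and Snhg20 had 5 (57.5%), the median of all windows. In Snhg17 and Snhg20 the printed run lies wholly before the RefSeq start, and in Snhg1 and Snhg5 wholly after it. Only in Gas5, Snhg8 and Snhg12 does the printed run cross the start. The printed Gas5 start lies 744 bases from the GENCODE start and was the one with the longer run, while the other lies 179 bases away. The Snhg20 start lies 775 bases from its GENCODE start. These runs do not by themselves show a terminal tract, and the start used in muscle was not measured.

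Among the hosts, 6 had a negative and 3 a positive log2 fold change in injured muscle (49.8% of all genes were negative), and none passed the test across all genes. Snhg14 came nearest, at 14.2 ± 1.09 CPM in injured against 24.4 ± 1.89 CPM in non-injured muscle (SD, n = 3). Snhg20, the most abundant host, stood at 131 ± 27.8 against 185 ± 18.6 CPM. Gas5, Snhg6, Snhg8 and Snhg17 differed by less than the spread between libraries. The count passing in edgeR's quasi-likelihood test was 0 of 9, where 0.746% of all genes passed. At an unadjusted p under 0.05 there were 4 of 9, all lower (Snhg5, Snhg12, Snhg14 and Snhg20), against 6.11% of all genes lower at that level. DESeq2 called Snhg14 alone, as lower, where it called 2.03% of all genes (1.57% higher, 0.466% lower). Limma-voom called none of the 9. With the letter as a replicate block, edgeR called Snhg14 and Snhg20 lower, where 5.86% of all genes passed (3.21% higher, 2.65% lower).

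The median log2 fold change of the 9 hosts was -0.38, against 0.00 over all genes. In Snhg5, Snhg14 and Snhg20 the injured libraries all lay below the non-injured ones, a separation seen in 9.57% of all genes (21.5% counting both directions). Lower values within each of the 3 letter pairs were found for 4 hosts, Snhg5, Snhg12, Snhg14 and Snhg20, and for 21.9% of all genes. Summed over the 9 hosts, counts came to 225, 299 and 320 CPM in injured A, B and C, and to 342, 356 and 413 CPM in the non-injured libraries. The sums did not overlap, and Snhg20 alone made up at least 44.1% of each.

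**Figure D1:**
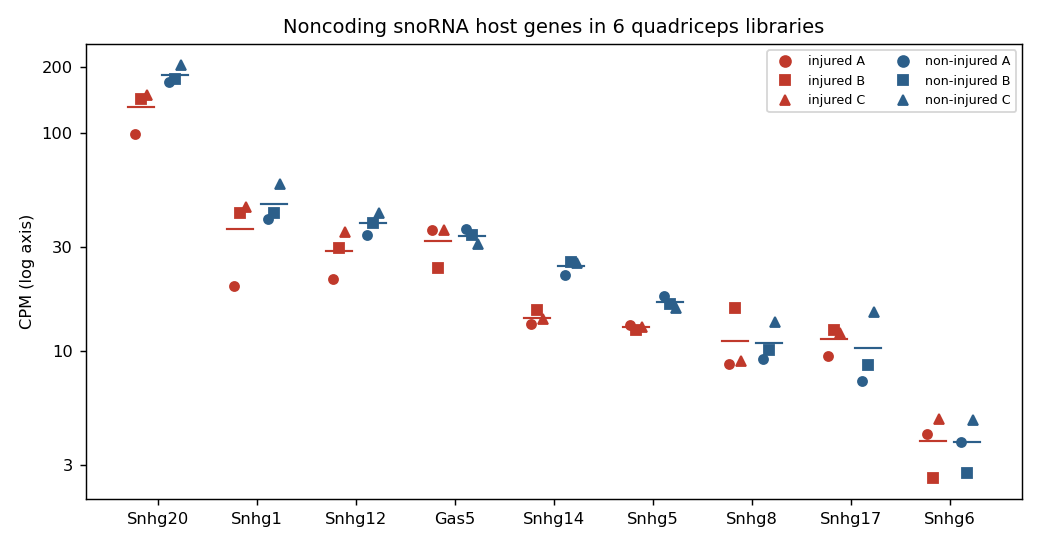
CPM of each host, on a log axis, in the 3 injured (red) and the 3 non-injured (blue) libraries, with symbols for the letters and short lines for group means. The groups part in Snhg5, Snhg14 and Snhg20, and overlap in the other 6 hosts.

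Snhg14, at chr7:59307924-59975759 on the minus strand, carries tandem box C/D clusters of the Prader-Willi region. It measured 13.3, 15.4 and 14.0 CPM in injured A, B and C, and 22.2, 25.5 and 25.4 CPM in non-injured A, B and C. Every injured library was below every non-injured library. The log2 fold change was -0.78 ± 0.16 (SE) with a 95% interval from -1.13 to -0.42, and edgeR's adjusted p was 0.0502. That value lies just outside the threshold, as the highest adjusted p among the genes called was 0.0493. Within letters A, B and C the log2 differences were -0.72, -0.71 and -0.85. With the letter as a block the log2 fold change was -0.77 and edgeR's adjusted p 0.00778, and without the block DESeq2 gave 0.0222.

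Snhg20, at chr11:117076008-117078955 on the plus strand, contains the scaRNA gene Gm26083. Its levels were 99.2, 144 and 150 CPM in the injured libraries and 171, 177 and 206 CPM in the non-injured ones. Injured A was lowest and the groups did not overlap. The log2 fold change was -0.49 ± 0.17 (SE), with an edgeR adjusted p of 0.195. With the letter as a block it was -0.51, with an adjusted p of 0.0161, and this call was not made in any other setting tried. Without injured A the log2 fold change was -0.34, edgeR's adjusted p being 0.251.

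Snhg5, on chromosome 9, hosts Snord50a and a second box C/D RNA. Injured A, B and C had 13.2, 12.4 and 12.8 CPM, while non-injured A, B and C had 17.9, 16.4 and 15.8 CPM. The 2 groups were narrow and apart. The difference was -0.38 ± 0.17 (SE) on the log2 scale, with an edgeR adjusted p of 0.313, or 0.189 with the letter block. The table's row for Snhg5 spans 88495268 to 88523562, wider than the GENCODE M21 gene at 88521050 to 88522929, so what else was counted in it is uncertain.

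Snhg12, at chr4:132308623-132311024 on the plus strand, holds 5 annotated guide RNA entries. Snora44, Snora61 and Snora16a, the last entered more than once, are among them. It measured 21.3, 29.6 and 35.2 CPM in injured and 33.9, 38.5 and 43.1 CPM in non-injured muscle. Injured C lay above non-injured A, so the groups overlapped. Its log2 fold change was -0.42 ± 0.19 (SE), edgeR's adjusted p was 0.303, and without injured A the change was -0.26.

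Snhg1, at chr19:8723475-8726443 on the plus strand, carries 8 annotated snoRNAs including Snord22. The injured libraries had 19.9, 42.9 and 45.7 CPM and the non-injured libraries 40.4, 42.9 and 58.2 CPM. Only injured A was below the whole non-injured group. The log2 fold change of -0.38 ± 0.26 (SE; edgeR adjusted p = 0.516) became -0.10 without that library.

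Gas5, at chr1:161034422-161038539 on the plus strand, holds 10 short snoRNA entries, with Snord80 entered more than once. It stood at 35.7, 24.1 and 35.9 CPM in injured and 36.2, 34.2 and 30.9 CPM in non-injured muscle. Injured B was lowest and the other 5 libraries lay close together. The log2 fold change was -0.08 ± 0.17 (SE), with an interval from -0.46 to 0.29, and edgeR's adjusted p was 0.862. Without injured B it was 0.08.

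The remaining 3 hosts had small or unstable differences. Snhg8, at chr3:123507552-123508404, hosts Snora24 and had 8.73, 15.7 and 8.97 CPM in injured against 9.18, 10.1 and 13.5 CPM in non-injured muscle. Snhg17, at chr2:158353700-158361580, hosts 3 snoRNAs and had 9.49, 12.4 and 12.1 CPM against 7.27, 8.61 and 15 CPM. Snhg6, at chr1:9941959-9944118, hosts Snord87 and had 4.13, 2.6 and 4.84 CPM against 3.83, 2.76 and 4.82 CPM. All 3 lie on the minus strand, and their groups overlapped.

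Intervals of the log2 fold change ran from -0.54 to 0.60 in Snhg8, from -0.44 to 0.73 in Snhg17 and from -0.76 to 0.82 in Snhg6, with edgeR adjusted p of 0.973, 0.844 and 0.978. Snhg6, with a mean of 28.0 counts per library, was the least deeply counted host, against 1180 counts for Snhg20. The signs of Snhg6, Snhg8 and Snhg17 changed when 1 library was left out.

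**Figure D2:**
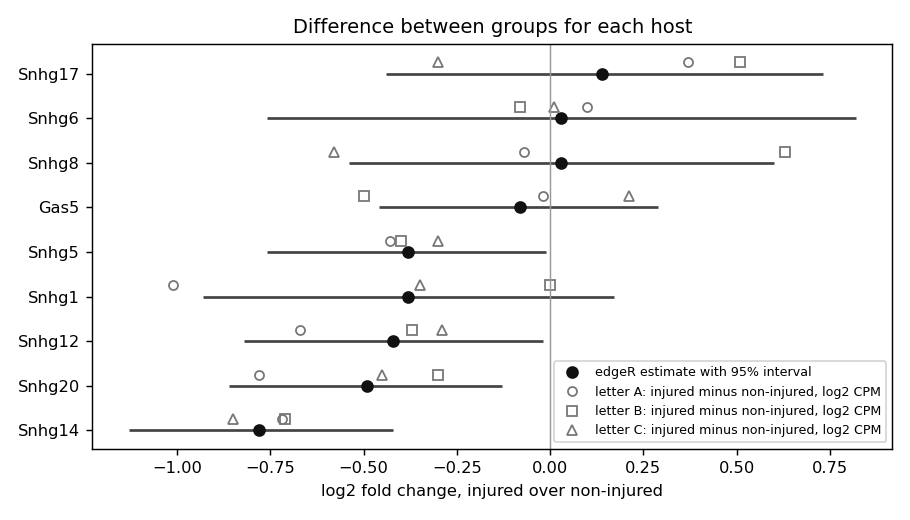
Log2 fold change of each host, injured over non-injured, from edgeR, with its 95% interval as a bar, and open symbols for the log2 CPM difference within each letter. Snhg14 lies farthest from 0, and its interval runs from -1.13 to -0.42.

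Levels per length separated the hosts by a wide range. In CPM per kilobase of GENCODE exons, the non-injured mean was 66.1 ± 6.65 (SD, n = 3) for Snhg20, the highest. It was 16.0 ± 1.91 for Snhg12, 15.9 ± 3.25 for Snhg1, 12.8 ± 2.68 for Snhg8, 9.65 ± 0.611 for Snhg5 and 8.99 ± 0.711 for Gas5. Lower values were found for Snhg6 (3.32 ± 0.901), Snhg17 (1.46 ± 0.585) and Snhg14 (0.934 ± 0.0723).

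Neighbours in this order overlapped for Snhg12 and Snhg1, for Snhg1 and Snhg8, and for Snhg5 and Gas5, while the other adjacent hosts did not overlap between libraries. Exon lengths include retained-intron models, and that of Snhg5 is from GENCODE rather than from the wider row. The levels use the host row alone, while the exon bases at Snhg1, Snhg8, Snhg12 and Snhg20 include those of inner RNAs. Inner rows held 75.7% to 81.5% of the counts at Snhg1. The order is therefore one of host rows, not of whole loci. The low level of Snhg14 is per 26093 exon bases in a gene of 667836 bases, and the transcripts used in muscle were not resolved.

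The 6 inner RNA rows all had lower means in injured muscle. Snord22, which takes part in processing of the small-subunit ribosomal RNA, was the most abundant, at 62.3, 142 and 165 CPM in injured and 159, 189 and 212 CPM in non-injured libraries. Gm26083, in Snhg20, had 25.1, 46.6 and 62.5 CPM against 57.7, 68.9 and 89.3 CPM. Snora16a, in Snhg12, had 20.1, 49.2 and 52.8 CPM against 49.4, 61.0 and 81.9 CPM. In each of these, injured A was the lowest library and the groups overlapped.

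Of the other 3, Snora24 in Snhg8 had 5.36, 23.1 and 32.5 CPM in injured against 21.7, 34.3 and 39.0 CPM in non-injured libraries. Snora44 in Snhg12 had 5.51, 15.1 and 17.7 CPM against 17, 19.3 and 30 CPM. Snora61 in Snhg12 had 0.153, 1.83 and 2.85 CPM against 4.85, 7.69 and 4.69 CPM. It was the only inner row whose groups did not overlap, where 9.57% of all genes lay lower without overlap. Its estimated counts were only 0.654, 11.9 and 20.1 in injured A, B and C. The log2 fold changes of the 6 ran from -0.60 for Snord22 to -1.81 for Snora61.

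In edgeR's test 0 of the 6 passed, with adjusted p from 0.143 for Snora61 to 0.507 for Snora24, where 0.0311% of all genes passed as lower. With the letter as a block all 6 passed as lower, with edgeR adjusted p from 0.00547 for Gm26083 to 0.0455 for Snora24, where 2.65% of all genes did. The other tools gave 1 call in DESeq2, where 0.466% of all genes passed as lower, and 0 in limma-voom. Without both letter A libraries, the blocked fit called 1 of them.

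At 4 loci the values were whole numbers in every library only when host and inner rows were summed. Values in the table are estimated counts that need not be whole. In Snhg1, Snhg8, Snhg12 and Snhg20 the host and inner values summed to a whole number within 0.05 in all 6 libraries, although the host value alone was whole in at most 2. Of the hosts with no inner row, the value was whole in all 6 libraries for Gas5 and Snhg6, in 4 for Snhg5 and in 0 for Snhg14, which shares exon bases with other genes. The sum at Snhg17 was whole in 3. Inner RNAs held 75.7% to 81.5% of the counts at Snhg1. At Snhg8 the inner share was 37.9% in injured A and 59.6% to 78.2% in the others. At Snhg12 it was 54.6% in injured A and 67.6% to 73.0% elsewhere, and at Snhg20 20.2% and 24.4% to 30.2%. Injured A had the lowest inner share at all 4 genes.

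Adding the inner counts to the host moved the values down at all 4 loci. The log2 fold change of the sum was -0.56 ± 0.27 (SE) at Snhg1, -0.44 ± 0.31 at Snhg8, -0.64 ± 0.25 at Snhg12 and -0.54 ± 0.19 at Snhg20. For Snhg8 this turned the sign, from 0.03 for the host row. None of the 4 sums passed edgeR's test, with adjusted p of 0.343, 0.544, 0.259 and 0.198.

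**Figure D3:**
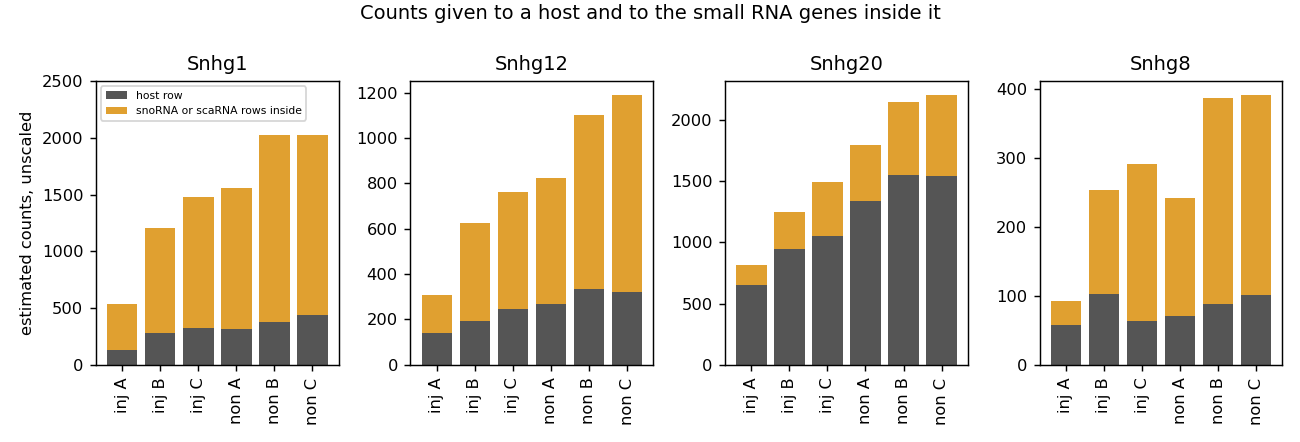
Estimated counts, not scaled for library size, of the host row (dark) and of the inner RNA rows (orange) in each library at the 4 loci with shared reads, stacked on a linear axis from 0. The inner part at Snhg1 is 75.7% to 81.5% of the bar, and injured A has the shortest bar at each locus.

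Guide RNA rows elsewhere in the genome were also lowest in injured A for the most part. The 99 snoRNA and scaRNA rows outside the 9 hosts summed to 5270, 7870 and 8362 CPM in injured A, B and C, and to 9476, 9898 and 11900 CPM in non-injured A, B and C. Of these rows 94 were lowest in injured A. The log2 fold change was negative in 91 of the 95 tested (49.8% of all genes), with a median of -0.56. None passed in edgeR's test, while 36 passed as lower with the letter block, where 2.65% of all genes did. The groups of the summed levels did not overlap.

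Among the hosts examined, Snhg12 and Snhg20 stood in the most nearly constant ratio to this sum. Per 1000 CPM of those rows, Snhg20 stood at 18.8, 18.3 and 17.9 in injured and 18.0, 17.9 and 17.3 in non-injured libraries. The highest over the lowest of these ratios was 1.09, against 2.07 for the CPM of Snhg20 itself. For Snhg12 the same spread was 1.17 against 2.03. The spread of the ratio was 1.45 for Snhg1 (2.93 for its CPM), and 1.54 for Snhg14 (1.91). In the other 5 hosts the ratio spread more than the CPM, at 1.88 against 1.44 for Snhg5, 2.06 against 1.8 for Snhg8, 2.35 against 2.06 for Snhg17, 2.61 against 1.5 for Gas5 and 2.82 against 1.86 for Snhg6. The libraries share depth and preparation, and the part of small RNA levels in the values of Snhg12 and Snhg20 was not tested. Snhg4, a noncoding host outside those examined, had 443, 604 and 653 CPM in injured A, B and C. In non-injured A, B and C it had 690, 814 and 968 CPM. Snhg4 thus rose in the same library order as the sum. A near-constant ratio to the sum is therefore not to be called particular to Snhg12 and Snhg20, although that of Snhg4 was not computed.

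**Figure D4:**
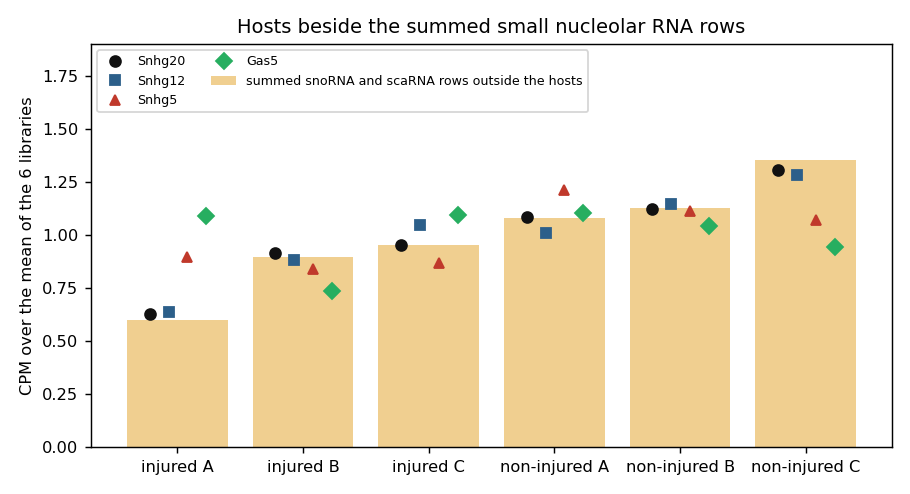
CPM over the 6-library mean for Snhg20, Snhg12, Snhg5 and Gas5 (symbols) beside the summed CPM of 99 snoRNA and scaRNA rows outside the hosts (bars), by library. Snhg20 and Snhg12 are lowest in injured A, as the bars are, while Gas5 is lowest in injured B.

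The Snhg14 region was examined through its neighbours. Ube3a, the ubiquitin ligase gene lost in Angelman syndrome, lies antisense and shares 1803 exon bases with Snhg14. It had 117, 87 and 110 CPM in injured against 146, 130 and 148 CPM in non-injured libraries, without overlap. Its log2 fold change was -0.43 ± 0.15 (SE), with an edgeR adjusted p of 0.195, or 0.0243 with the letter block. The strand setting of the counting is unstated, so reads of Ube3a and Snhg14 in the shared bases cannot be told apart.

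Gm38393, a same-strand gene model with 27 shared exon bases, had 9.65, 12.2 and 12.0 CPM against 18.1, 14.9 and 22.9 CPM. The groups did not overlap, and the log2 fold change was -0.72 ± 0.21 (SE; edgeR adjusted p = 0.12, or 0.0316 with the letter block). Snrpn encodes a spliceosomal protein and is also expressed from the paternal chromosome. It measured 14.2, 11.3 and 16.1 CPM in injured and 15.3, 13.8 and 11.6 CPM in non-injured libraries, with a log2 fold change of 0.03 ± 0.20 (SE; edgeR adjusted p = 0.959). In injured A and B the estimated counts were 93.1 and 73.8 for Snrpn and 62.9 and 80.2 for Gm38393, none of them whole. Whether reads were split between Snrpn and Gm38393 was not tested, so Snrpn is not known to be a separate comparison.

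Snhg14 relative to Snrpn was 0.935, 1.36 and 0.867 in injured and 1.45, 1.85 and 2.18 in non-injured libraries. The ratios did not overlap and differed by -0.80 on the log2 scale, with an exact two-sided permutation p of 0.1, the smallest that 3 against 3 can give. Relative to Ube3a, the difference was -0.33 (exact permutation p = 0.3), and relative to Gm38393 it was -0.06 (exact permutation p = 0.9). These 3 ratios were chosen after the values were seen, and adjustment over them could only raise the p-values. The part of reads split between rows in these ratios was not tested. Elsewhere in the region, Atp10a had a log2 fold change of 0.81 (edgeR adjusted p = 0.155, or 0.0313 with the block) and Ndn one of 0.18 (0.845).

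**Figure D5:**
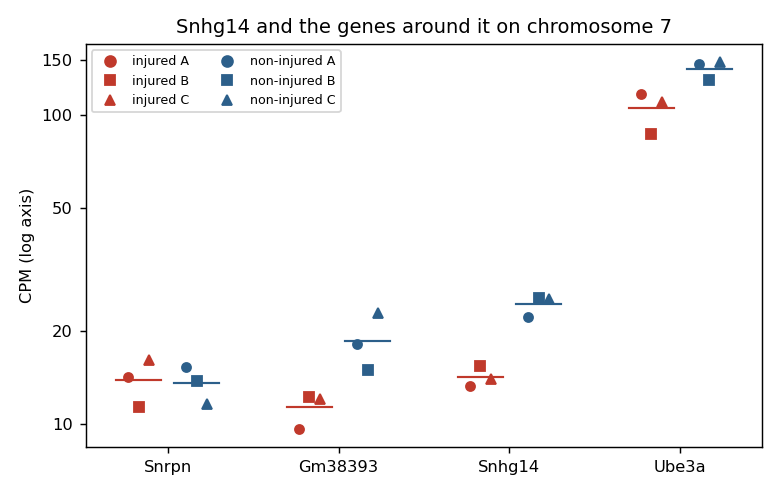
CPM of Snrpn, Gm38393, Snhg14 and Ube3a in each library, on a log axis, with symbols for the letters and short lines for group means. The groups part in Snhg14, Ube3a and Gm38393 and overlap in Snrpn.

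None of the partners that start close to a host on the other strand passed the test. Slc3a2, a subunit of amino acid transporters whose start lies 106 bases from that of Snhg1, had a log2 fold change of 0.01 ± 0.17 (SE; edgeR adjusted p = 0.985). Zbtb37, a zinc finger gene starting 427 bases from Gas5, had -0.20 ± 0.15 (SE; edgeR adjusted p = 0.571), its injured libraries all lying below the others. Mcmdc2, antisense to Snhg6 over 127 exon bases, was too low to test.

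Other noncoding snoRNA hosts had no member past the test. Of 13 listed, 10 had a row and 9 were tested. Their median log2 fold change was -0.05, none passed in edgeR's test, DESeq2 or limma-voom, and 2 had an unadjusted p under 0.05 (15.4% of all genes did). These were Snhg4, at -0.54 (edgeR adjusted p = 0.166, or 0.00738 with the letter block), and Rian, an imprinted host of box C/D clusters, at 0.87 (0.103, or 0.0222 with the block). Snhg4 had 443, 604 and 653 CPM in injured and 690, 814 and 968 CPM in non-injured libraries. Snhg11 and Dancr stood at 1.09 and -0.47, with adjusted p of 0.36 and 0.42.

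Protein-coding hosts, which carry guide RNAs in the introns of translation genes and others, had a median of -0.01 over 34 members. None passed in edgeR's test or limma-voom, 10 had an unadjusted p under 0.05 (15.4% of all genes did) and DESeq2 called 1 (2.03%). With the letter block edgeR called Rpsa higher and Taf1d and Rpl12 lower, where 3.21% of all genes passed as higher and 2.65% as lower. Taf1d, a subunit of the RNA polymerase I selectivity factor, had 219, 191 and 237 CPM in injured and 301, 334 and 410 CPM in non-injured muscle, without overlap. Its log2 fold change was -0.69, with an edgeR adjusted p of 0.0645, or 0.00201 with the letter block. Rpsa and Rpl23, ribosomal protein genes, stood at 0.42 (edgeR adjusted p = 0.16, or 0.0293 with the block) and 0.46 (0.188), and Rpl10 at -0.54 (0.195).

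The machinery that makes and removes these RNAs showed no member past the test, where 0.746% of all genes passed. The 20 snoRNP proteins and assembly factors had a median of -0.01 and no unadjusted p under 0.05 in edgeR (15.4% of all genes did). DESeq2 and limma-voom called none of them. Values for the 4 with the smallest p were 0.43 for Znhit6, -0.73 for Ruvbl1, -0.54 for Pih1d1 and 0.45 for Nop10. The 15 factors of nonsense-mediated decay had a median of 0.03, with no unadjusted p under 0.05 (15.4% of all genes). Neither DESeq2 nor limma-voom called any. Xrn1, the cytoplasmic 5′ to 3′ exonuclease, stood at -0.17 and the factors Upf3b, Eif4a3 and Smg9 at -0.23, 0.17 and 0.19.

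Messenger RNAs with a terminal oligopyrimidine tract had a median log2 fold change of 0.21 over 34 members, 8 of them negative. In 11 the injured libraries all lay above the others (11.9% of all genes) and in 3 below (9.57%). None passed in edgeR's test or limma-voom, 11 had an unadjusted p under 0.05 (15.4% of all genes) and DESeq2 called 1 (2.03%). With the letter block edgeR called 4 higher (3.21% of all genes) and 1 lower (2.65%). Eef1a1, a translation elongation factor, had 0.71 (adjusted p = 0.0618, or 0.00421 with the block) and Rpl3 had 0.51 (0.136, or 0.048). Hnrnpa1, an RNA-binding protein, had -0.56 (0.143, or 0.0175). The signs of this list and of the 9 hosts thus differed in the median, a difference that was not tested.

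Regulators of those mRNAs had a median of -0.02 over 9 members, none passing in edgeR, DESeq2 or limma-voom. Only 1 had an unadjusted p under 0.05 (15.4% of all genes did). That was Rps6kb1, a kinase of the mTOR pathway, at -0.36 (adjusted p = 0.295). Eif4ebp1, Myc and Larp1 stood at 0.39, 0.74 and 0.11. Nuclear long noncoding RNAs had a median of -0.16 over 6 members, 2 of them at an unadjusted p under 0.05 (15.4% of all genes). None passed edgeR's test or limma-voom, while DESeq2 called 2 (2.03%). Meg3 had 1 and Kcnq1ot1 -0.49 (adjusted p = 0.0697 and 0.0967), and with the letter block both passed, at 0.00819 and 0.0128, where 5.86% of all genes did. Neat1 and Malat1, retained in the nucleus, stood at -0.19 and -0.14.

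The genes whose log2 CPM across the 6 libraries was most like the mean profile of the 9 hosts were Wdr4, Gm22009, AW554918, Mrps31 and Sec24a. Their Pearson correlations were 0.991, 0.990, 0.989, 0.987 and 0.986, given as a description among genes with a mean of at least 50 counts. Gm22009 is annotated as a scaRNA. The hosts did not share a single profile. Pearson correlations between pairs of them ran from -0.943 (Gas5 and Snhg8) to 0.974 (Snhg12 and Snhg20).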

How the data were processed

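RNA was extracted from 6 quadriceps samples with TRIzol and a column kit, per the labels' protocols. Estimated counts per gene were deposited by the authors as 1 table. The submitters' processing notes list STAR 2.7.8a, Partek, DESeq2, mm10 and hg19, with no roles. Which counter and strand setting were used is not given in the sources used here. The table's name calls the RNA myonuclear, while the protocol names no isolation of nuclei. Of its 20015 rows, 19342 had the name and span of a GENCODE M21 gene, counting an end 1 base beyond as equal. The lowest row maximum was 10 counts, so genes below it are absent.

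Counts were rounded, filtered with filterByExpr (16095 genes kept, 3920 dropped), scaled by TMM and tested with edgeR 4.0.16 in R 4.3.3 (quasi-likelihood F test, two-sided, group only, Benjamini-Hochberg over all genes tested, threshold 0.05). SE was obtained by dividing the log2 fold change by the root of F, and log2 CPM used a prior count of 2. DESeq2 1.42.0 and limma 3.58.1 (voom) were alternatives, as were other scalings and filters, the letter block and leaving out each library. Library totals of 6.45 to 8.75 M counts and 3 libraries in each group limit the precision.

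Deviations from group means correlated between same-letter libraries at 0.316 (A), 0.208 (B) and 0.113 (C) over 16095 genes. Pairing by letter rests on these values alone. The labels do not explain the letters, so the main fit has no block and the letter block is an alternative. Which of the fits matches the design is not settled. Blocked values or calls stand beside a result where they change a call.

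The members, lists and tests were chosen with earlier results of these data known. Named genes were all members, up to 4 of each pathway list with the smallest p, inner RNA rows with a mean of at least 20 counts, neighbours, and the 5 genes most like the mean profile. Sequences are from GENCODE M21 transcripts and RefSeq.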

Additional observations from a re-analysis of the deposited data

How the results depend on the processing

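Snhg14 had a negative log2 fold change in all 16 alternatives, from -0.86 to -0.71. Its adjusted p ran from 0.00778 to 0.218 and passed in 7: RLE scaling (0.0487), no filter (0.0413), DESeq2 (0.0222), the letter as a replicate block (0.00778), that block without both letter A libraries (0.024), without non-injured A (0.0456), and without small RNA rows (0.0462). Snhg20 passed with the block alone (0.0161), and its log2 fold change ran from -0.63 to -0.34. The number of the 9 hosts called lower was 1 with RLE, no filter, DESeq2, the block without letter A and without small RNA rows, 2 with the block, and 0 to 1 when each library was left out. Leaving out small RNA rows and summing hosts with inner rows were chosen after seeing the data.

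Over all genes, 252 were called higher by DESeq2, 53 by limma-voom, 516 with the replicate block, 344 with the block without letter A, and 20 to 104 when each library was left out. Called lower were 17 with no filter, 3 with a mean of at least 50 counts, 75 by DESeq2, 427 with the block, 336 with the block without letter A, 9 without small RNA rows and 0 to 25 when each library was left out. Inner RNA rows called lower were 1 by DESeq2, 6 with the block and 1 with the block without letter A. List members called with the block, and with the block without letter A, were 2 and 1 (other noncoding hosts), 3 and 2 (protein-coding hosts), 5 and 3 (oligopyrimidine mRNAs), 2 and 1 (Prader-Willi region) and 2 and 2 (nuclear RNAs). DESeq2 called 1 protein-coding host, 1 oligopyrimidine mRNA and 2 nuclear RNAs. Upper quartile scaling and the mean of at least 50 counts each called 1 oligopyrimidine mRNA. Leaving out each library gave 0 to 1 for both the protein-coding hosts and the oligopyrimidine mRNAs.

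Signs reversed only for values that did not pass. Gas5 was 0.08 without injured B and Snhg17 -0.07 without non-injured A. Snhg6 was -0.02 with no filter, -0.04 with the block without letter A, -0.03 without injured A, -0.19 without injured C and -0.18 without non-injured B. Snhg8 was -0.03 with no filter, -0.0048 with limma-voom, -0.44 summed with its inner row, -0.30 without injured B, -0.10 without non-injured A and -0.05 without non-injured B. Over all single-library omissions, Snhg6 ran from -0.19 to 0.25, Snhg8 from -0.30 to 0.18 and Snhg17 from -0.07 to 0.48. The cause of these changes was not tested. The block changed no other call among the hosts. Snhg6, at a mean of 28.0 counts, had the lowest depth of the 9 hosts.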
